A study of Mus musculus with 4 samples.

Results

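The genes described here build the junctions that hold skin cells to each other and to the basement membrane. The list holds 33 genes: 12 of the desmosome, 5 of the adherens junction, 9 of the hemidesmosome and basement membrane adhesion, 4 of the tight junction and 3 of the gap junction. They were chosen by name, but with earlier results of these data known. Of the 33, 30 were measured by a probe set that names 1 gene, out of 17097 genes so measured. Pkp3, Dsg3 and Lama5 were not analysed here, since no probe set was paired with them alone. Each gene is given by the probe set with the highest mean over the 4 arrays, and its other probe sets are set beside it.

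Total RNA came from the back skin of male C3H mice, 8 weeks old, shaved while their hair follicles were at rest. Skin of the control group received the vehicle, Milli-Q water, and skin of the TCQA group received TCQA (quinic acid esterified with 3 caffeic acids) at 1%, both daily for 30 days, and 2 arrays were deposited for each group (Control 1, Control 2, TCQA 1 and TCQA 2). The study used 5 mice per group, and since the sources do not tell whether an array held 1 mouse or a pool, a p-value here reflects how far single arrays differ, a spread that may be technical. The sample labels date the skin to day 30, the legends of the study to a later day, and no mouse is paired across the groups. Where 4 values follow each other without names, they stand for Control 1, Control 2, TCQA 1 and TCQA 2 in this order.

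Desmosomes join the keratin filaments of neighbouring cells through desmosomal cadherins (desmogleins and desmocollins), which plakoglobin and plakophilins link to desmoplakin. Adherens junctions join actin through classical cadherins and catenins, and hemidesmosomes anchor basal keratinocytes to laminins through an integrin pair and the linkers plectin and dystonin. Tight junctions seal the upper epidermis, and gap junctions let small molecules pass between cells.

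Control 1 stood apart from the other arrays. A log2 value of at least 8 was reached by 522 probe sets on Control 1 and by 23 to 31 on each of the others. The median of 4 basal keratinocyte markers was 9.06 and 3.13 in Control 1 and 2, and 2.85 and 2.85 in TCQA 1 and 2, and that of 7 suprabasal markers was 6.18, 2.05, 1.98 and 2.23. The median, over the genes of a list, of Control 1 minus the mean of the other arrays was 8.71 for skeletal muscle markers (highest on Control 1 in 7 of 7), 4.41 for adipocyte markers (3 of 3 measured, of 5 listed), 2.01 for fibroblast markers (4 of 6) and 0.45 for leukocyte markers (3 of 5). It was -0.40 for hair follicle markers (1 of 7 measured, of 8 listed) and -0.27 for endothelial markers (1 of 5). Krt14, the keratin of the basal layer, had log2 values of 8.67, 2.86, 2.37 and 2.70, and Krt10, a keratin of the layers above it, 7.99, 1.93, 1.98 and 2.23. Not all keratinocyte markers were both high on Control 1 and low on the other arrays, the following being named after their values were seen. Krt5, the partner of Krt14, was also far highest on Control 1, at 9.83. It was still at 4.91, 5.02 and 4.52 on Control 2, TCQA 1 and TCQA 2. The genes of terminal differentiation Flg (1.21, 1.34, 1.40 and 1.94) and Lor (1.58, 1.26, 1.35 and 1.33) were low on all 4 arrays, and Ivl had 3.20, 3.63, 3.83 and 3.18. The part of these markers in the values below was not tested, and in bulk skin fewer cells of a type and less RNA per cell cannot be told apart. Nor can they be told apart here from a technical difference in signal between the arrays, which was not tested.

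No junction gene passed the test between TCQA and control. limma on the deposited log2 values called 0 of the 30 genes at an adjusted p under 0.05, against 0.0% of 45037 probe sets, and the members' adjusted p ranged from 0.92 to 0.93. At an unadjusted p under 0.05, limma and the unmoderated test each called 0 members, against 141 and 754 of all probe sets. At the study's thresholds, a 2-fold difference with an unadjusted p of at most 0.05, 0 members were lower (0.17% of all genes) and 0 were higher (0.14%). Without Control 1 the count past the adjusted threshold was again 0, and without Control 2, with Control 1 as the only control, it was 17 of 30, against 28.7% of all genes.

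The estimated differences leaned towards lower values with TCQA while Control 1 was in the comparison. The mean of the TCQA arrays was below the control mean for 20 of 30 genes (66.7%; 17 after a further quantile normalization), against 43.8% of all genes, and the median log2 fold change was -0.86 over the members and 0.08 over all genes. The members' median shrank to -0.32 after the further quantile normalization and to -0.24 without probe sets marked as cross-hybridizing (26 members left). For 26 of 30 members (86.7%) this difference was smaller than the distance between the control arrays, against 82.1% of all genes. Without Control 1, the TCQA mean was below Control 2 for 15 of 30 members (50.0%), against 54.7% of all genes, and the median difference was 0.00 over the members and -0.03 over all genes. For these probe sets the sign of the members' median thus depended on Control 1. With probe sets chosen without Control 1, the median difference from Control 2 stayed slightly negative, at -0.06. On Control 2, TCQA 1 and TCQA 2 the members' median level was 2.59, 2.49 and 2.87, against 5.40 on Control 1. The median of all probe sets on Control 2, TCQA 1 and TCQA 2 was 2.55, 2.54 and 2.49. Whether low signal limited the differences without Control 1 was not tested.

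The members split by how they stood on Control 1. That array was the highest of the 4 for 19 members (63.3%), against 33.9% of all genes, and lay at least 2-fold above the highest other array for 17 (56.7%), against 19.9%. It was the lowest for 10 members (33.3%), against 53.6% of all genes. On the deposited scale all 19 members with the highest value on Control 1 had a negative log2 fold change, and all 10 with the lowest had a positive one. Control 1 is part of the control mean, so this sign largely follows from its rank and is no separate result. Itgb1 was neither, with Control 1 between the other arrays.

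**Figure D1:**
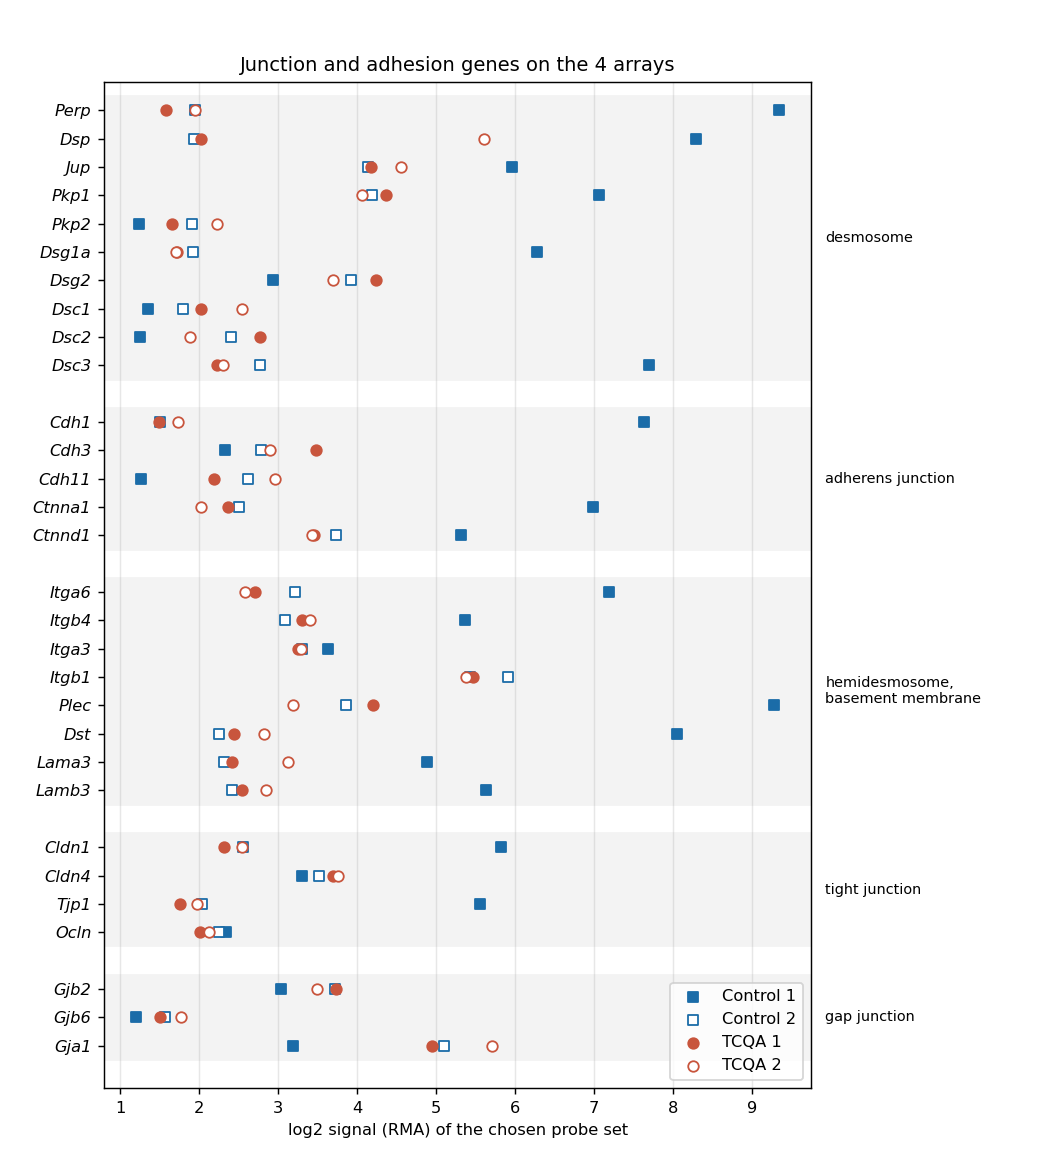
Log2 signal of each junction gene (vertical axis, grouped by junction type) on the 4 arrays, 1 symbol per array, for the probe set with the highest mean. Control 1 lies to the right for 19 of 30 genes and to the left for 10, while the other 3 arrays lie within 1 log2 unit of each other for 28.

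Promoter sequences of 4 genes are shown to set both patterns side by side. Dsp and Cldn1 were far higher on Control 1, whereas Cldn4 and Gjb2 were lowest on it. Each is the 250 bases before the RefSeq start in GRCm38.p6, 5′ to 3′ on the gene's strand: Dsp chr13:38151044-38151293 (plus), Cldn1 chr16:26371840-26372089 (minus), Cldn4 chr5:134946935-134947184 (minus) and Gjb2 chr14:57104703-57104952 (minus). Capitals mark CAGGTG, the E-box that the repressors of cadherin genes Snail and ZEB bind, TGANTCA, the AP-1 motif, and GGGCGG, the GC box, on either strand, and no matches overlapped.
Dsp: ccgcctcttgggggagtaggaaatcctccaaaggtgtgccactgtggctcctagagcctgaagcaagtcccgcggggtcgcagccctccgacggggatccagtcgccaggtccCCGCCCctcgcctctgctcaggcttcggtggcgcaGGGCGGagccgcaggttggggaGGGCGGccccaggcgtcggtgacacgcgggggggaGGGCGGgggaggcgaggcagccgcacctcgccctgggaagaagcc
Cldn1: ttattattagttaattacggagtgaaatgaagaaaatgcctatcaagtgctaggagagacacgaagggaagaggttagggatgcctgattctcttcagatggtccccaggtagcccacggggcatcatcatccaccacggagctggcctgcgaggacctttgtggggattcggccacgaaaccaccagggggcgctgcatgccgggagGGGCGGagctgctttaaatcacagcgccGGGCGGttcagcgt
Cldn4: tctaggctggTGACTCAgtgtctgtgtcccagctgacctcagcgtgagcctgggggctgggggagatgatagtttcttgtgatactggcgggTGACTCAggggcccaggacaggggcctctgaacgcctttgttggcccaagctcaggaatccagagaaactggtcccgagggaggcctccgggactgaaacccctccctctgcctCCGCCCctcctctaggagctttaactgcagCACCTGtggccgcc
Gjb2: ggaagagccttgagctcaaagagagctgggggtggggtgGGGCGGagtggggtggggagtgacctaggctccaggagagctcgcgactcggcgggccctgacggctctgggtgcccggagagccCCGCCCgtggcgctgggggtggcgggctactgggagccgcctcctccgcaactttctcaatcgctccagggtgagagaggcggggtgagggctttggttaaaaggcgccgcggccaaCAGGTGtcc
Dsp held 4 GC boxes and Cldn1 held 2, with no match of the other motifs. Cldn4 held 1 E-box, 2 AP-1 motifs and 1 GC box, and Gjb2 held 1 E-box and 2 GC boxes. Of all 32851 such windows, 17.2% held the E-box, 6.75% the AP-1 motif and 32.7% the GC box. Of the 33 listed genes 15 had a window, 20 windows in all, with the E-box in 7 of the 20, the AP-1 motif in 2 and the GC box in 13. The E-box did not follow the patterns shown by the printed genes. It was in a window of Dst, Lamb3, Itga3 and Ocln, all highest on Control 1. It was also in Cldn4 and Gjb2, lowest on it, and in Lama5, but not in Gja1 and Gjb6, also lowest on it. The AP-1 motif was in Cldn4 and Gja1. A link between motifs and arrays was not tested. A match is a run of letters, not a bound site.

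Among the desmosomal genes, 6 of the 10 measured were at least 2-fold higher on Control 1 than on any other array. Perp, a membrane protein of desmosomes, had log2 values of 9.34 and 1.95 in Control 1 and 2, and 1.58 and 1.94 in TCQA 1 and 2. Perp was thus high on Control 1 and below the median of all probe sets on the other 3 arrays. The control mean was 5.64 ± 5.23 (SD, n = 2) and the TCQA mean 1.76 ± 0.26 (SD, n = 2). The log2 fold change of -3.89 (SE 2.49), the most negative of the list, became -0.19 against Control 2 alone.

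Dsp encodes desmoplakin, the linker to keratin, and was the member in which the TCQA arrays lay farthest apart. Its values were 8.29 and 1.93 in Control 1 and 2, and 2.02 and 5.61 in TCQA 1 and 2. The log2 fold change was -1.30 (SE 2.46), and it turned to 1.89 without Control 1, to 0.50 without TCQA 1 and to 0.17 after a further quantile normalization. Dsp was the 1 member whose TCQA mean differed at least 2-fold from Control 2, against 0.491% of all genes. Its other probe sets did not show the high value of TCQA 2. One had 8.99, 1.35, 1.47 and 1.33 (log2 fold change -3.77), and the other 1.54, 1.60, 1.52 and 1.65 (0.02).

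The plaque proteins of the desmosome did not share 1 pattern. Jup, which encodes plakoglobin of desmosomes and adherens junctions, had 5.96, 4.13, 4.18 and 4.55, and Pkp1, the plakophilin of the upper epidermis, had 7.06, 4.19, 4.37 and 4.07. Their log2 fold changes of -0.68 (SE 0.70) and -1.41 (SE 1.01) became 0.23 and 0.03 without Control 1, and Jup gave 0.19 after a further quantile normalization. Pkp2, a plakophilin of heart and of simple and basal epithelia, went the other way on Control 1, with 1.24, 1.91, 1.66 and 2.23 (log2 fold change 0.37, SE 0.43), and its other probe set gave -0.06.

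The desmosomal cadherins have the genes Dsc3, Dsc2, Dsc1, Dsg1c, Dsg1a, Dsg1b, Dsg4, Dsg3 and Dsg2, which lie next to each other in this order among the protein-coding genes of 1 cluster. These neighbours did not move as 1 block across the arrays. Dsc3, the desmocollin of the basal layers, had 7.69 and 2.76 in Control 1 and 2, and 2.23 and 2.31 in TCQA 1 and 2 (log2 fold change -2.96, SE 1.67). Dsg1a, a desmoglein of the upper epidermis, had 6.28, 1.93, 1.72 and 1.70 (-2.39, SE 1.49). Both were high on Control 1 alone. Dsc1, the desmocollin of the upper epidermis, had 1.35, 1.80, 2.02 and 2.55, Dsc2, the widely expressed desmocollin, had 1.25, 2.40, 2.77 and 1.88, and Dsg2, the widely expressed desmoglein, had 2.94, 3.92, 4.24 and 3.70. Each of these was lowest on Control 1, with log2 fold changes of 0.71 (SE 0.39), 0.51 (SE 0.58) and 0.54 (SE 0.49). Without Control 1 the differences were -0.50 for Dsc3, -0.22 for Dsg1a, 0.48 for Dsc1, -0.07 for Dsc2 and 0.04 for Dsg2.

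The probe set used decided the sign for some of these cadherins. Dsg2 had 6 probe sets, whose log2 fold changes ran from -1.66 to 0.54, and 2 of them were high on Control 1: 1 with 5.25, 2.63, 2.41 and 2.83 (-1.32) and 1 with 5.18, 2.12, 2.30 and 1.67 (-1.66). The second Dsc1 probe set gave -0.14 and the second Dsc2 probe set 0.06. The second Dsc3 probe set, which has the highest mean when Control 1 is left out, had 2.40, 3.83, 3.21 and 2.45 (log2 fold change -0.28), with a TCQA mean minus Control 2 of -1.0.

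Over the 10 desmosomal genes the median log2 fold change was -0.99, with 6 of 10 lower with TCQA, and it turned to 0.03 without Control 1 and to 0.18 after a further quantile normalization. The median level was 6.12 and 2.17 in Control 1 and 2, and 2.12 and 2.43 in TCQA 1 and 2.

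In the adherens junction, E-cadherin and its catenins parted from the other cadherins. Cdh1, which encodes E-cadherin, the main cadherin of epidermis, had 7.63 and 1.51 in Control 1 and 2, and 1.49 and 1.73 in TCQA 1 and 2. It was below the median of all probe sets on every array but Control 1. The log2 fold change was -2.96 (SE 2.07), and it was 0.10 without Control 1. Ctnna1, the catenin that couples cadherins to actin, had 6.98, 2.51, 2.37 and 2.02 (-2.55, SE 1.53), and a second probe set 3.85, 2.05, 1.66 and 1.81 (-1.21). Ctnnd1, the catenin that holds cadherins at the surface, had 5.31, 3.74, 3.46 and 3.42 (-1.08, SE 0.61). Both kept the sign without Control 1, at -0.31 and -0.29, and the other Ctnnd1 probe sets gave -0.25 and 0.25.

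Cdh3 and Cdh11 had no high value on Control 1. Cdh3, which encodes P-cadherin of basal and follicle cells, had 2.32 and 2.78 in Control 1 and 2, and 3.48 and 2.89 in TCQA 1 and 2, so that both TCQA arrays lay above both controls, by 0.11 at the nearest. The log2 fold change was 0.63 (SE 0.40), it was 0.40 without Control 1, and a second probe set gave 0.57. Cdh11, a cadherin of mesenchymal cells, had 1.26, 2.62, 2.19 and 2.96, with a log2 fold change of 0.63 (SE 0.61) that became -0.04 without Control 1. Its second probe set had 1.41, 1.54, 1.73 and 2.95 (0.86), where TCQA 2 was the high array. The 5 adherens junction genes had a median of -1.08, with 3 of 5 lower, and -0.04 without Control 1. Their median level was 5.31 and 2.62 in Control 1 and 2, and 2.37 and 2.89 in TCQA 1 and 2.

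All 8 measured genes of the hemidesmosome and basement membrane adhesion had a negative log2 fold change, from -2.88 (Plec) to -0.19 (Itga3), although Itgb1 turned to 0.54 after a further quantile normalization, and Control 1 was the highest array for 7 of them. The integrin pair of the hemidesmosome is encoded by Itga6 and Itgb4. Itga6 had 7.19 and 3.22 in Control 1 and 2, and 2.71 and 2.58 in TCQA 1 and 2, and Itgb4 had 5.37, 3.09, 3.30 and 3.41. The log2 fold change of Itga6, -2.56 (SE 1.36, limma unadjusted p = 0.13), had the lowest p of the list, and without Control 1 it was -0.57. Its second probe set had 6.18, 1.88, 2.53 and 2.68 (-1.42), with the TCQA mean 0.73 above Control 2, the opposite direction. Itgb4 gave -0.88 (SE 0.82), and 0.26 without Control 1.

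The integrins of focal contacts were close on all arrays. Itga3, which pairs with the product of Itgb1 to bind laminin, had 3.63 and 3.30 in Control 1 and 2, and 3.26 and 3.28 in TCQA 1 and 2 (log2 fold change -0.19, SE 0.34), and its other probe sets gave -0.09 and 0.15. Itgb1, the shared beta chain, had 5.43, 5.91, 5.46 and 5.38 (-0.25, SE 0.36). This was the only member for which Control 1 was neither highest nor lowest. Its other 4 probe sets ran from -1.33 to 0.10, the first with 4.26, 2.68, 2.68 and 1.59.

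The linkers and the laminin chains were high on Control 1. Plec, which encodes plectin, had 9.29 and 3.86 in Control 1 and 2, and 4.20 and 3.19 in TCQA 1 and 2 (log2 fold change -2.88, SE 1.87), and Dst, which encodes dystonin, had 8.05, 2.25, 2.44 and 2.82 (-2.52, SE 1.96). Both were far higher on Control 1 than on any other array. Plec was not low elsewhere, at percentiles 87.3, 92.2 and 74.9 of all probe sets on Control 2, TCQA 1 and TCQA 2. The other probe sets of both genes were negative too, at -0.79 and -0.34 for Plec and at -2.80, -2.42 and -0.34 for Dst. Lama3 and Lamb3, chains of the laminin that hemidesmosomes bind, had 4.89, 2.32, 2.41 and 3.12 (-0.83, SE 0.94) and 5.63, 2.41, 2.54 and 2.84 (-1.33, SE 1.12). Without Control 1 the differences were -0.16 for Plec, 0.38 for Dst, 0.45 for Lama3 and 0.28 for Lamb3. A second Lama3 probe set gave 0.02. The median over the 8 genes was -1.10, and 0.12 without Control 1. When Control 1 was also left out of the choice of probe sets, the latter was -0.18. Their median level was 5.53 and 3.15 in Control 1 and 2, and 2.98 and 3.16 in TCQA 1 and 2.

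**Figure D2:**
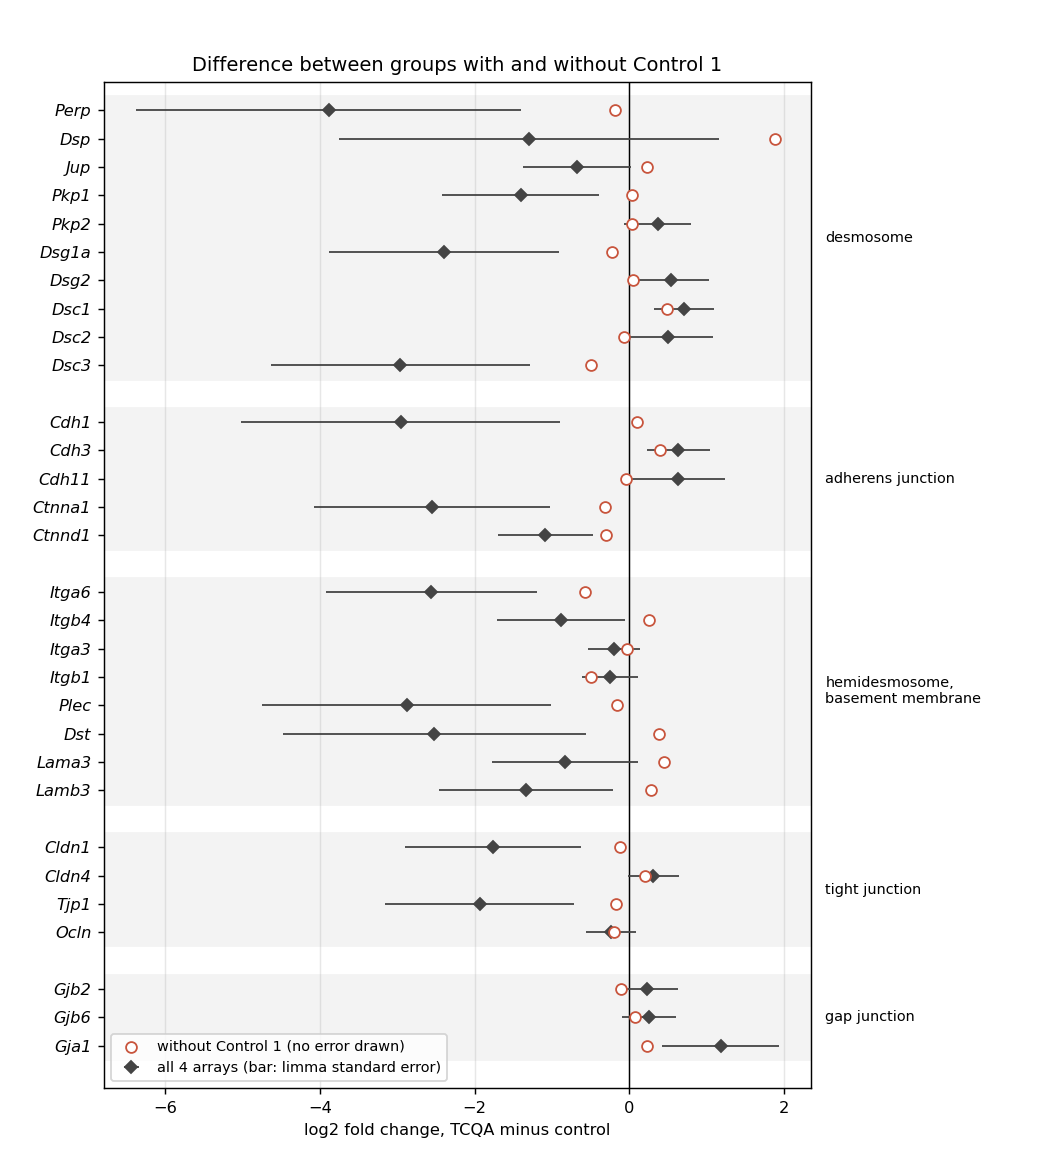
Log2 fold change of each junction gene, TCQA minus control, with all 4 arrays (diamonds, bar: limma standard error) and against Control 2 alone (circles, no error drawn). Without Control 1 all genes but Dsp lie between -0.57 and 0.48, and the median moves from -0.86 to 0.00.

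Of the tight junction genes, Cldn1, the barrier claudin of the epidermis, had 5.82 and 2.55 in Control 1 and 2, and 2.31 and 2.54 in TCQA 1 and 2 (log2 fold change -1.76, SE 1.14), and a second probe set gave -0.13. Tjp1, the scaffold ZO-1 under the junction, had 5.56, 2.03, 1.75 and 1.97 (-1.93, SE 1.22). Both were high on Control 1 alone. Ocln, which encodes occludin, had 2.34, 2.26, 2.01 and 2.12 (-0.23, SE 0.32), and Cldn4, a claudin of the granular layer, had 3.30, 3.52, 3.69 and 3.75 (0.31, SE 0.33). In these genes the TCQA arrays lay apart from both controls by small gaps, 0.13 below for Ocln and 0.17 above for Cldn4. Without Control 1 the differences were -0.12 for Cldn1, -0.17 for Tjp1, -0.19 for Ocln and 0.20 for Cldn4. The median of the 4 genes was -1.0, and -0.15 without Control 1. Their median level was 4.43 and 2.40 in Control 1 and 2, and 2.16 and 2.33 in TCQA 1 and 2.

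The gap junction genes were the one type with no member lower with TCQA, and none of the 3 was highest on Control 1. Gjb2 (connexin 26) had 3.03 and 3.71 in Control 1 and 2, and 3.73 and 3.49 in TCQA 1 and 2 (log2 fold change 0.24, SE 0.40), and Gjb6 (connexin 30), its partner in epidermis and cochlea, had 1.20, 1.57, 1.5 and 1.78 (0.25, SE 0.35). Gja1 (connexin 43), the connexin of basal keratinocytes and fibroblasts, had 3.19, 5.10, 4.95 and 5.71 (1.18, SE 0.76), the most positive difference of the list. Without Control 1 they gave -0.10, 0.07 and 0.23. The Gja1 value rested on the probe set used. Of its other probe sets 3 were high on Control 1 alone, with 7.44, 1.82, 1.66 and 2.07 (-2.76), with 8.08, 2.64, 2.40 and 2.40 (-2.96) and with 6.64, 1.26, 1.15 and 1.48 (-2.64), and the fourth had 3.0, 2.76, 2.96 and 3.61 (0.41). The mean of all 5 gave a log2 fold change of -1.35. The type's median was 0.25, and 0.07 without Control 1, and its median level was 3.03 and 3.71 in Control 1 and 2, and 3.73 and 3.49 in TCQA 1 and 2.

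**Figure D3:**
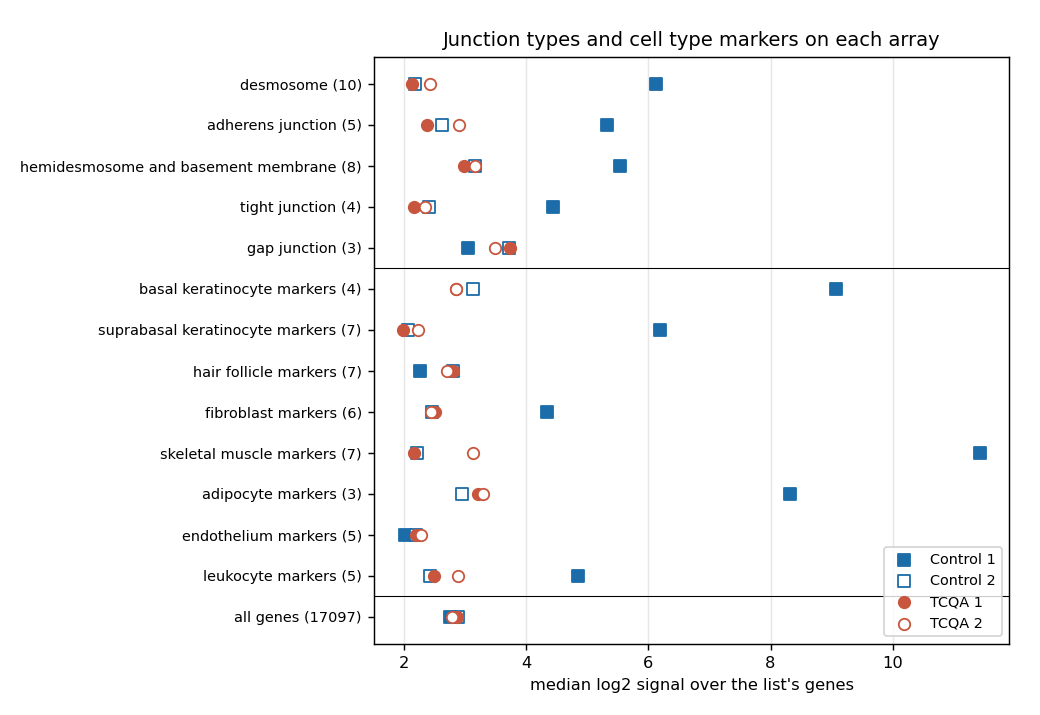
Median log2 signal of each junction type and of each cell type marker list on the 4 arrays (number of genes measured in brackets), with the median of all 17097 genes at the bottom. Desmosome, adherens junction, hemidesmosome and tight junction genes lie at 4.43 to 6.12 on Control 1, as keratinocyte, muscle and adipocyte markers lie high on it, while gap junction genes lie at 3.03. Fibroblast and leukocyte markers lie at 4.34 and 4.84 on Control 1, hair follicle and endothelial markers at 2.26 and 2.00.

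The members lay farther apart between the control arrays than between any pair of the other 3 arrays. The median absolute log2 difference of the members was 2.10 between Control 1 and Control 2 (0.79 over all genes), with 20 of 30 at least 2-fold apart, against 39.1% of genes. It was 1.96 between Control 1 and TCQA 1 and 1.93 between Control 1 and TCQA 2. Between Control 2 and TCQA 1 it was 0.21 (0.19 over all genes) with 0 members 2-fold apart, against 0.322% of genes. Between Control 2 and TCQA 2 it was 0.32 (0.28 over all genes) with 1, Dsp, against 3.76% of genes. The TCQA arrays differed from each other by 0.30 (0.28 over all genes), with 2 members 2-fold apart, against 3.71% of genes. The members thus lay near all genes in these 3 pairs. The range over Control 2, TCQA 1 and TCQA 2 was below 1 for 28 of 30 members, against 94.3% of all genes, with Dsp at 3.68 and Plec at 1.01 as the others. Control 2 lay between the TCQA arrays for 10 members, against 38.0% of all genes.

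Both TCQA arrays lay below both controls for 10 members (Perp, Dsg1a, Dsc3, Ctnna1, Ctnnd1, Itga6, Itga3, Cldn1, Tjp1 and Ocln), against 13.6% of all genes, and above both for 3 (Dsc1, Cdh3 and Cldn4), against 16.0%. The gap between the groups ran from 0.01 (Perp and Cldn1) to 0.51 (Itga6) in the former and from 0.11 (Cdh3) to 0.22 (Dsc1) in the latter. The gap of Ocln (0.13) was wider than the distance between its controls (2.34 and 2.26).

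Most members were measured by several probe sets, and these often did not give 1 answer. The 30 genes had 64 probe sets, 12 genes with 1 and 18 with more. In 9 of these 18 the log2 fold changes differed in sign, against 49.7% of the 7180 genes with several probe sets. The median range within a gene was 1.33 for these members and 0.62 for all such genes. In 9 genes, 1 probe set was highest on Control 1 and another lowest. Over the 64 probe sets, 43 were lower with TCQA, 37 were highest on Control 1 and 19 lowest. The shares over all genes and all probe sets were not counted for these last results, so they only describe the members.

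**Figure D4:**
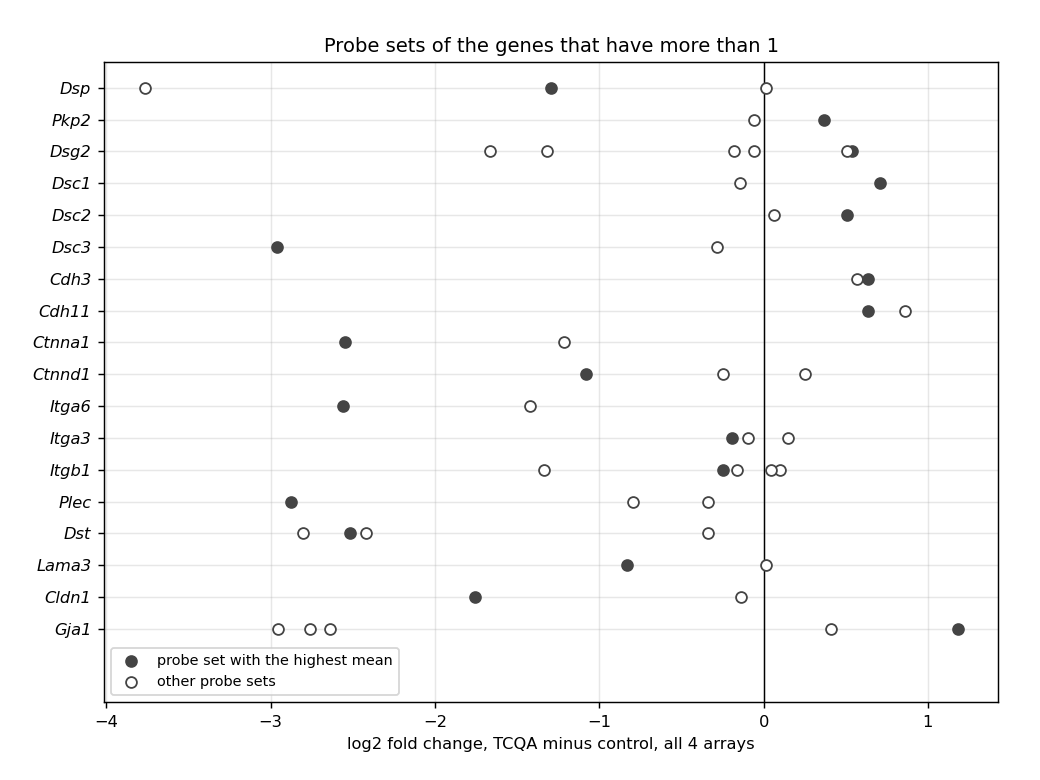
Log2 fold change, TCQA minus control, of every probe set of the 18 junction genes that have more than 1 (filled: the probe set with the highest mean, open: the others). In 9 genes the points fall on both sides of 0, most widely in Gja1, from -2.96 to 1.18.

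The mean that chose the probe set includes Control 1, so a probe set high on that array alone could be chosen. When Control 1 was left out of the choice, 4 genes (Dsc3, Itga3, Plec and Dst) were represented by another probe set. Then 20 of 30 members were lower with TCQA, against 41.1% of all genes, 17 were highest on Control 1, against 30.9%, and the median log2 fold change was -0.74. Against Control 2 alone, the TCQA mean of these probe sets was lower for 16 of 30 members, against 9282 of 17097 genes. The median difference was then -0.06 over the members and -0.03 over all genes.

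Further genes of the same junctions were described by the same counts. Of 61 listed, 52 were measured, and 30 of these were lower with TCQA, against 43.8% of all genes. None passed limma's test, and the median log2 fold change was -0.16, and -0.02 without Control 1. Control 1 was the highest array for 25 of the 52, against 33.9% of all genes. The counts per type are small and are to be read beside the 43.8%. Per type, 5 of 5 desmosomal genes were lower (median -0.37), 6 of 11 of the adherens junction (-0.06), 10 of 16 of the hemidesmosome and basement membrane (-0.27), 7 of 13 of the tight junction (-0.03) and 2 of 7 of the gap junction (0.19).

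Outside the gap junction, the 2 largest differences of each type were those of genes highest on Control 1. Col17a1, the transmembrane collagen of hemidesmosomes, had 9.0 and 1.95 in Control 1 and 2, and 1.91 and 1.80 in TCQA 1 and 2 (log2 fold change -3.62), and Cd151, a tetraspanin partner of laminin-binding integrins, had 7.44, 3.08, 2.78 and 4.22 (-1.76). Ctnnb1, which encodes beta-catenin of adherens junctions and Wnt signalling, had 8.83, 2.84, 3.32 and 3.05 (-2.65), and Afdn, the nectin-bound actin linker, had 7.42, 2.70, 2.51 and 2.62 (-2.50). All 4 were far higher on Control 1 than on any other array, Cd151 by the least (3.22). Pkp4, a plakophilin relative, had 5.05, 1.77, 1.79 and 1.75 (-1.64), and Cdsn, corneodesmosin of the cornified layer, 4.88, 3.19, 3.39 and 2.77 (-0.96). In the tight junction, the claudin Cldn12 had 5.14, 1.97, 2.04 and 2.09 (-1.49) and the adhesion molecule F11r 4.54, 3.15, 3.04 and 2.34 (-1.15). The connexins differed from these and from each other. Gja5, of blood vessels and heart, had 2.31, 3.12, 4.26 and 3.27 (1.04), with TCQA 1 the highest, and Gjb5, of epidermis, 3.78, 2.97, 2.77 and 3.09 (-0.45). None of these 10 differences passed limma's test.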

How the data were processed

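The deposited values are the authors' log2 signals of probe sets on 4 Affymetrix mouse PM array strips, computed with RMA (background correction, normalization and summary of the probes to probe sets) in Affymetrix software. Whether the arrays were normalized together could not be judged from summarised values, and scan batches are not given in the sources used here. Of 45141 probe sets, 104 Affymetrix controls were left out. Of the other 45037, 28898 name 1 gene in the platform annotation, 551 name several and 15588 are unnamed here. Of those with 1 gene, 28689 had an identifier in RefSeq (GRCm38.p6) and 0 symbols changed.

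The test between TCQA and control was the moderated linear model of limma 3.58.1 under R 4.3.3 (two-sided, p-values adjusted by Benjamini-Hochberg over all 45037, no filter on dim probe sets, 2 residual degrees of freedom), after the step was tested on simulated data. Log2 fold changes are TCQA minus control. With 2 arrays a group, the smallest p an exact permutation test can give is 0.333. The members and the gene lists (junction types, further junction genes, cell type markers) were chosen with earlier results of these data known, so lists get counts and medians and no test. All members are named, with the 2 largest absolute differences of each type among the further junction genes and Krt14 and Krt10 of the markers. Alternatives were a further quantile normalization, centring, a filter on dim probe sets, a replicate block, an unmoderated test, the trend and robust options of limma, leaving out each array, and other choices of the probe set. Precision is limited throughout by the small number of arrays.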

Additional observations from a re-analysis of the deposited data

Results flagged for a closer look

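Probe sets that name several genes were outside the comparisons, and 4 of them name Ctnna1 among others. In 1 of these both TCQA arrays lay above both control arrays: the log2 values were 1.38 and 1.86 in Control 1 and 2, and 2.13 and 2.04 in TCQA 1 and 2, a TCQA mean of 2.08 and a log2 fold change of 0.46. Which of its genes gave the signal cannot be told apart. The other 3 gave log2 fold changes of -0.21, 0.34 and 0.07 with overlapping groups. Groups of 2 arrays are too small to test for an array far from its group.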

How the results depend on the processing

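The count of members past the test stayed at 0 under the further quantile normalization, the centring, the filter on dim probe sets (24 members left), limma's trend and robust options, the unmoderated test, the replicate block and each other choice of probe set. It moved when Control 2 was left out, with Control 1, the array that stood apart, as the only control. The members' median log2 fold change was then -1.94. Leaving out each array in turn gave 0 to 17 members past the test, 0 to 17 lower and 0 to 3 higher at the study's thresholds, 15 to 20 members lower with TCQA and a members' median log2 fold change of -1.94 to 0.00. The junction type medians then ran from -2.22 to 0.03 (desmosome), -1.87 to -0.04 (adherens junction), -2.53 to 0.12 (hemidesmosome), -1.84 to -0.15 (tight junction) and 0.07 to 0.58 (gap junction). A lone array was taken to vary as much as the other group's pair. Without Control 1 the members' median was 0.0019 and the desmosome median 0.032, and 11 members changed sign: Dsp (range over the left-out arrays -4.48 to 1.89), Jup (-1.59 to 0.23), Pkp1 (-2.84 to 0.0312), Dsc2 (-0.0706 to 1.08), Cdh1 (-6.02 to 0.10), Cdh11 (-0.0449 to 1.31), Itgb4 (-2.02 to 0.26), Dst (-5.42 to 0.38), Lama3 (-2.12 to 0.45), Lamb3 (-2.94 to 0.28) and Gjb2 (-0.10 to 0.58). The share of all genes that changed sign without Control 1 was not counted, so the 11 only describe the members. Without TCQA 1, Dsp gave 0.50.

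The further quantile normalization turned the desmosome median to 0.18, Dsp to 0.17, Jup to 0.19 and Itgb1 to 0.54, with 17 of 30 members lower. It moved the median of all probe sets from 0.12 to 0.06, and centring moved it to 0.03. Averaging the probe sets of each gene turned Dsg2 to -0.36 and Gja1 to -1.35. Without probe sets marked as cross-hybridizing (26 members), Lama3 gave 0.0159 and Gja1 -2.76. With dim probe sets left out the gap junction median was 0.71. The cause of these changes was not tested. The labels number the arrays 1 and 2 in each group without saying that a number pairs them, and the deviations of same-numbered arrays from their group means correlated at -0.12. The replicate block left 0 members past the test and changed no call. The crossed pairing, added after seeing the data, also gave 0 members past the test and 0 at the study's thresholds.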
